A study of Mus musculus with 21 samples.

Results

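The report concerns 10 genes for peptide hormones and neuropeptides measured by RNA-seq in mouse pancreatic islets, Npy, Pyy, Cartpt, Vgf, Gal, Nmb, Gast, Cck, Tac1 and Adcyap1, out of 55536 genes in the deposited counts. These genes were chosen from the peptide precursors of the islet with earlier results of the same 21 samples in view, so their differences between the groups are given as a description and no test of whether the groups differ is reported for them. Islets came from CBA male mice in 3 groups of 7 samples. RD mice received regular diet, HFD mice high-fat diet, and HFD-O304 mice high-fat diet containing 0.8 mg O304 per g. O304 is a small molecule known by its code name that activates AMPK, the kinase that senses cellular energy. Diets began at 10 weeks of age and islets were taken from mice of 20 weeks, although the methods give 9 weeks of diet for part of the work. Each sample was RNA of 150 islets from a pool of 5 mice, so a sample is a pool of animals and not 1 mouse. The title of HFD-O304 replicate 1 names HFD-O304 while its diet tag names HFD, and the sample was placed by its title. HFD replicate 3 was placed by its diet tag, and all other samples by their titles.

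Islet endocrine cells make peptide hormones as longer precursors, which are cut by convertases, trimmed and often amidated in secretory granules before release. Besides insulin, glucagon, somatostatin and pancreatic polypeptide, islets make small amounts of peptides better known from the brain, autonomic nerves and gut, and these act through G protein-coupled receptors on neighbouring cells or nerves. Npy and Pyy belong to the pancreatic polypeptide family and lower insulin release through Gi-coupled Y receptors. Gast and Cck encode gastrin and cholecystokinin, which share their active C terminus. Cartpt encodes the CART peptides, Vgf a granin-like precursor of several peptides, Gal galanin, Nmb neuromedin B, Tac1 substance P and neurokinin A, and Adcyap1 PACAP.

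The 5 promoters printed here belong to the genes on which the values below turn most, and they are shown because their short motifs differ. They are RefSeq sequences of build GRCm38.p6, each with 250 bases before and 50 bases after the start site, read 5′ to 3′ on the strand of the gene. A promoter was found for 9 of the 10 genes, and Vgf had none in the table. Capitals mark the motifs that were searched on both strands, namely the cAMP response element TGACGTCA (CRE), its shorter form TGACG, the E-box CACGTG, the TATA box TATAAA and the GC box GGGCGG. The short form lies inside the full CRE, so a full match counts as both.
Cartpt, chr13:99900634-99900933, minus strand: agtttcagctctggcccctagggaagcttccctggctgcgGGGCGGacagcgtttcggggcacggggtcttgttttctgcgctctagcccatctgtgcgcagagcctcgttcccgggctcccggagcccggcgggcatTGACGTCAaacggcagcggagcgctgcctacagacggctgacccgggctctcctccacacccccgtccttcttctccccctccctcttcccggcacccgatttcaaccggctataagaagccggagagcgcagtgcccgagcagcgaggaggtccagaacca
Cck, chr9:121495645-121495944, minus strand: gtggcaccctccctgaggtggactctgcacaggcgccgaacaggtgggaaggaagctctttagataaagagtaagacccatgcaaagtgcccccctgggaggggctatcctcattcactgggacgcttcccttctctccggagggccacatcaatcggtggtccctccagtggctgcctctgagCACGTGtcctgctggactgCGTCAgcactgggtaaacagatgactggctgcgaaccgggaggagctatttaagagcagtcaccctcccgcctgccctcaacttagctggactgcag
Tac1, chr6:7554811-7555110, plus strand: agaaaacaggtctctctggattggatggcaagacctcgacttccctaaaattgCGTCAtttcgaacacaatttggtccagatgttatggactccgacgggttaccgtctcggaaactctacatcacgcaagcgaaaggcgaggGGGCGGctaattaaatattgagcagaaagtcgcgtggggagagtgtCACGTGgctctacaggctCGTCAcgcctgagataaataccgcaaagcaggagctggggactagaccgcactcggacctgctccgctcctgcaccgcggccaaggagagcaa
Gast, chr11:100334157-100334456, plus strand: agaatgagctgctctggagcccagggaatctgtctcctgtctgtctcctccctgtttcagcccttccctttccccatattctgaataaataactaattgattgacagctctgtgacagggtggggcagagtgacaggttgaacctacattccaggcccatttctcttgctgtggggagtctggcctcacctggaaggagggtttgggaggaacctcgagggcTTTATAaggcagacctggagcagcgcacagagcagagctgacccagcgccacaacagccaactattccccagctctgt
Npy, chr6:49822460-49822759, plus strand: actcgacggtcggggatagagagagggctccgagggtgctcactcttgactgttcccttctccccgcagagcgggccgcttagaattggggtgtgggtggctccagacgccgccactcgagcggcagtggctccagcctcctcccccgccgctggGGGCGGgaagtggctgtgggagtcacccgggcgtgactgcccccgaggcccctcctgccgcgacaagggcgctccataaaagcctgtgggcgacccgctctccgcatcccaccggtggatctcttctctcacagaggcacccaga

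The full CRE stood in the Cartpt promoter, before the start site, and in none of the other promoters found. Of all 32851 promoters in the table, 588 (1.79%) held it. The short form was present in the promoters of Cartpt, Cck, Tac1, Adcyap1 and Gal, and in 20.8% of all promoters. In Cck the E-box began 66 bases and the short CRE 47 bases before the start, and in Tac1 they began 61 and 43 bases before it. An E-box was held by 7.15% of all promoters. Gast had the TATA box on the other strand 28 bases before the start, and 1 of the Adcyap1 promoters had it 58 bases before the start. This motif was held by 13.6% of promoters. A GC box, held by 35.7%, was found in Npy, Cartpt, Gal, Nmb and Tac1. Both Pyy promoters held none of these letters. A match is a description of the sequence and does not show that a factor binds there.

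The libraries held 13809266 to 48922569 read pairs on genes, with HFD-O304 replicate 2 the shallowest. The labelled tissue was checked against its markers, and the insulin genes Ins2 and Ins1, Iapp and Gcg were the 4 highest genes per kb of exon in RD islets. Acinar RNA varied widely between samples. The summed normalised count of 9 acinar markers ran from 3319 to 304080 in RD, 650 to 229871 in HFD and 431 to 99610 in HFD-O304 samples. In 3 libraries, HFD-O304 replicates 4, 5 and 7, the summed normalised count of 6 autonomic neuron markers (Phox2a, Dbh, Slc18a3, Chat, Prph, Stmn2) was 417, 187 and 181, against 77.9 to 96.04 in the other HFD-O304, 73.7 to 112.1 in RD and 82.2 to 135 in HFD samples. Values that rest on these libraries are given with and without them. The replicates were also of 2 sets by library number, 1 to 4 and 5 to 7 in every group, called sets 1 and 2 here. Markers of intestinal epithelium, in which several of these peptides are also made, summed to at most 6.61 normalised counts in any sample, and Cdx1 and Alpi had no read in any group. Since whole islets were sequenced, fewer cells of a type and less RNA per cell cannot be told apart.

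All 10 genes passed the filter of at least 10 read pairs over the 21 samples. Per kb of exon and scaled to library size (RPKM), the level of Pyy in RD islets was far above that of the other genes, at 1108 ± 202 (SD, n = 7), and only 16 of 27229 genes tested were higher. Vgf (17.8 ± 8.32) and Npy (16.6 ± 4.88) followed, and their ranges overlapped. Cartpt was next at 3.65 ± 1.53 and did not overlap Npy. Gast stood at 1.62 ± 0.506, Nmb at 0.369 ± 0.169, Gal at 0.191 ± 0.251 and Cck at 0.110 ± 0.0657, and each of these overlapped its neighbour in the order. Tac1 had a level of 0.0142 ± 0.0067, from 12 read pairs over the 7 samples, and Adcyap1 had 1 read pair in all. These lowest levels are close to what single reads give, and the range of Gal, from 0 to 0.680, held those of Cck and Tac1.

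**Figure D1:**
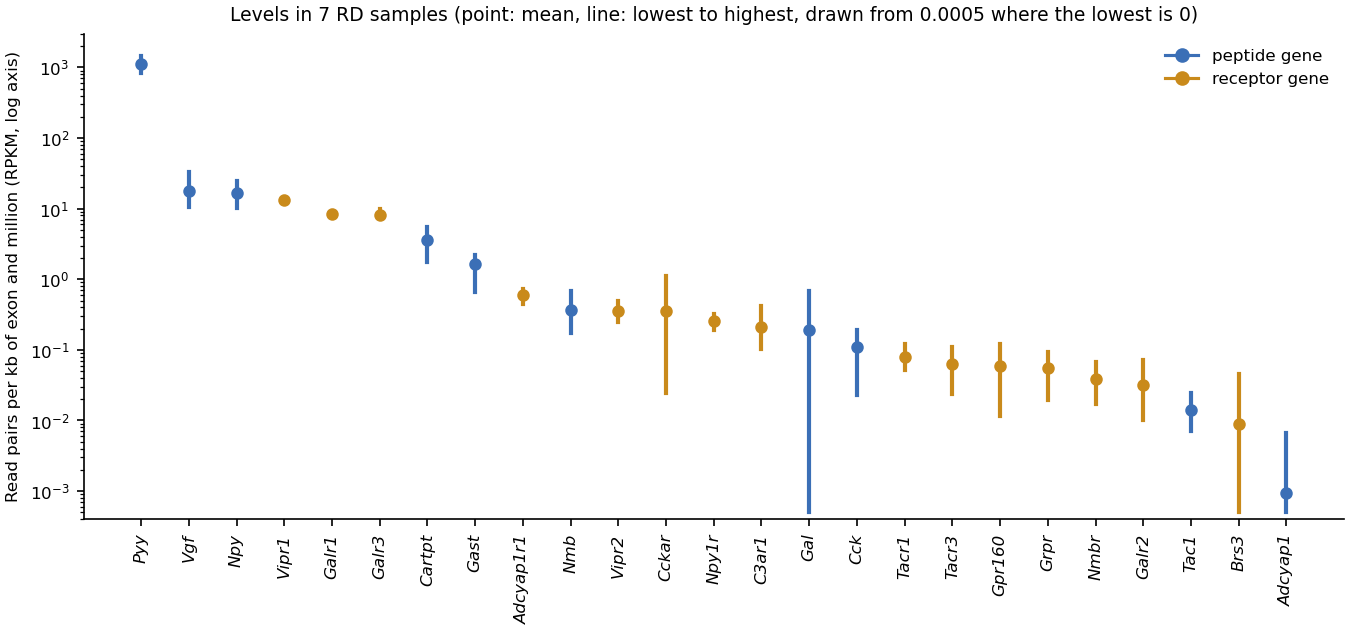
Levels of the 10 peptide genes and of the genes for their receptors in 7 RD samples, in read pairs per kb of exon scaled to library size (RPKM) on a log axis, with points for means and lines from the lowest to the highest sample. Pyy at 1108 stands above all others, Vgf and Npy lie near 17, and Adcyap1 rests on 1 read pair.

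The order of the levels was another one in each of the other groups. In HFD islets the levels per kb were 883 ± 233 for Pyy, 34.4 ± 12.95 for Vgf, 10.0 ± 3.40 for Cartpt and 5.93 ± 1.47 for Npy, so that Cartpt stood above Npy in mean with overlapping ranges. Cck, at 1.81 ± 2.09, ranged from 0.361 to 6.13 and overlapped Gast (3.61 ± 1.59). In HFD-O304 islets Npy was the next highest gene after Pyy (1753 ± 392), at 50.03 ± 14.8 and with no overlap with Vgf at 6.99 ± 3.06. Cartpt was at 1.51 ± 0.520 there and overlapped Gast at 0.988 ± 0.331. Cck was at 0.104 ± 0.0813, and its range, 0.0157 to 0.244, held that of RD islets (0.0227 to 0.190).

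Over all genes, edgeR's test at an adjusted p under 0.01 called 2.00% of the 27229 genes as higher under HFD than under RD and 1.54% as lower. In HFD-O304 against RD it called 0.404% as higher and 0.903% as lower, and in HFD-O304 against HFD 5.08% and 6.79%. The 10 genes were chosen on these contrasts, so their calls are not counted against these shares, and nothing is read from their overlap either. The 7 samples of each group did not overlap for 3 of the genes in HFD against RD (1.35% of all genes), for 1 in HFD-O304 against RD (1.56%) and for 5 in HFD-O304 against HFD (6.17%). The comparisons share their samples in pairs and are therefore not independent of each other. In what follows, levels of single genes are normalised counts, that is, read pairs divided by the size factor of the sample, and differences are fitted log2 fold changes with their standard error.

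**Figure D2:**
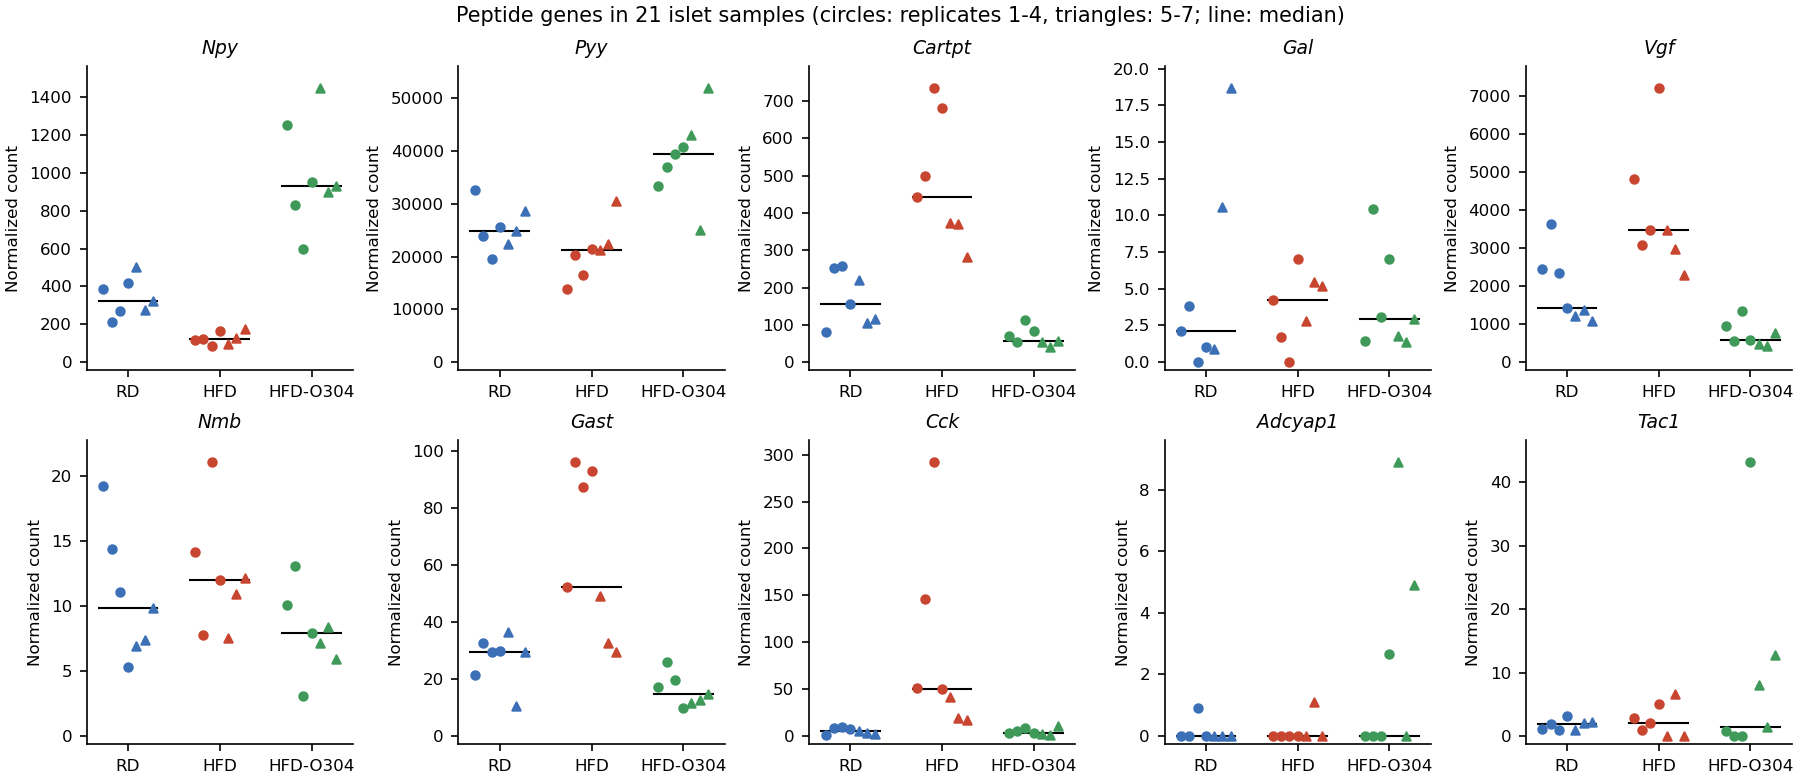
Normalised counts of the 10 peptide genes in each of the 21 samples, by group, with a line at the median of 7 samples, circles for replicates 1 to 4 and triangles for replicates 5 to 7. Npy separates all 3 groups, Cartpt and Cck stand highest in HFD, and Tac1 and Adcyap1 are near 0 except in a few HFD-O304 samples.

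Npy (ENSMUSG00000029819, chr6:49822710-49829507 in GRCm38) encodes neuropeptide Y, an inhibitor of insulin release when made within the islet. Its normalised count ran from 212 over a median of 322 to 504 in RD samples, from 84.4 over 122 to 173 in HFD samples and from 596 over 932 to 1448 in HFD-O304 samples. No sample of any group overlapped another group. The RD mean was 342 ± 100.9, that of HFD 127 ± 33.1 and that of HFD-O304 988 ± 281 (SD over 7 samples each). On the log2 scale the fitted fold change was −1.43 (standard error 0.19) for HFD against RD, 1.53 (0.18) for HFD-O304 against RD and 2.96 (0.20) for HFD-O304 against HFD. Within sets 1 and 2 of the libraries the values were −1.39 and −1.48, 1.49 and 1.57, and 2.87 and 3.05 in the same order. The HFD-O304 value against HFD was 2.82 without replicates 4, 5 and 7.

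Pyy (ENSMUSG00000017311, chr11:102106676-102107832) encodes peptide YY, which is made in islets as well as in the distal gut. Its RD samples held 19525 to 32574 normalised counts with a median of 24782, its HFD samples 13931 to 30477 with a median of 21318, and its HFD-O304 samples 25073 to 51918 with a median of 39386. Of the HFD samples 2 lay below every RD sample and the rest overlapped. Of the HFD-O304 samples 6 lay above every RD and every HFD sample, and replicate 6 was the exception. The log2 fold change was −0.28 (0.14) for HFD against RD, 0.61 (0.14) for HFD-O304 against RD and 0.89 (0.14) for HFD-O304 against HFD. Without HFD-O304 replicates 4, 5 and 7 the last of these was 0.69. In HFD against RD the difference was −0.49 in set 1 and −0.03 in set 2.

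Markers of other endocrine cells were also different between the groups. The 5 alpha cell markers summed to 841780 to 1051802 normalised counts in RD, 387664 to 708334 in HFD and 852448 to 1142112 in HFD-O304 samples, a sum that is nearly all Gcg. In HFD against RD, 2 of the 5 were lower (Gcg, Irx2) and 2 higher (Ttr, Gc) at an adjusted p under 0.01 (edgeR), and in HFD-O304 against HFD 3 were higher and 2 lower. The 4 delta cell markers (Sst, Hhex, Rbp4, Ghsr) summed to 86506 to 138252, 47149 to 104965 and 83866 to 160205, with 3 lower in HFD against RD and 4 higher in HFD-O304 against HFD. Ppy, the marker of PP cells, ran from 91918 to 173052 in RD, from 66595 to 146523 in HFD and from 89508 to 212299 in HFD-O304 samples, with log2 fold changes of −0.26 (0.18), 0.05 (0.18) and 0.32 (0.18) and no call (edgeR, adjusted p = 0.444, 0.942 and 0.249). None of the markers of these 3 cell types was at 0 in any group.

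Markers of other islet and pancreas cells moved as well. The 6 mesenchymal markers summed to 2119 to 3469 normalised counts in RD, 2283 to 6218 in HFD and 1351 to 3572 in HFD-O304 samples. Their fitted values in HFD against RD were above 0 for 6 of 6 with 1 call (Acta2, log2 fold change 0.91), and in HFD-O304 against HFD below 0 for 6 of 6 with 4 calls (Acta2, Col3a1, Pdgfrb, Col1a2). The 6 endothelial markers summed to 13969 to 16686, 13383 to 19257 and 10726 to 16765 in the same order of groups, with no call in HFD against RD and 2 lower in HFD-O304 against HFD (Pecam1, Cdh5). The 6 duct markers summed to 7431 to 9812, 8856 to 13856 and 8566 to 11012, with 3 called higher in HFD-O304 against HFD (Krt19, Sox9, Cftr). Their sum does not stand for most of them. The median sum was highest in HFD, yet 4 of 6 had fitted values below 0 in HFD against RD. In HFD-O304 against HFD 4 of 6 were above 0. All these calls are edgeR's at an adjusted p under 0.01, and none of the markers was at 0 in a whole group. For the marker calls of this paragraph and the previous one, the shares over all genes are those given above. They were 2.00% higher and 1.54% lower in HFD against RD, and 5.08% and 6.79% in HFD-O304 against HFD. The part of any of these cells in the differences of the 10 genes was not tested.

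Cartpt (ENSMUSG00000021647, chr13:99898489-99901091) encodes the precursor of CART peptides, which are made in islet endocrine cells and nerves. It had 81.1 to 258 normalised counts in RD samples (median 156), 281 to 734 in HFD samples (median 443) and 40.4 to 114.2 in HFD-O304 samples (median 57.0). Every HFD sample was above every RD and every HFD-O304 sample, and 5 of 7 HFD-O304 samples were below every RD sample. The log2 fold change was 1.49 (0.25) for HFD against RD, −1.31 (0.27) for HFD-O304 against RD and −2.80 (0.27) for HFD-O304 against HFD. Within sets 1 and 2 it was 1.65 and 1.19, −1.17 and −1.57, and −2.82 and −2.76. Cartpt is the gene whose printed promoter holds the full CRE, and whether that bears on these differences was not tested.

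Vgf (ENSMUSG00000037428, chr5:137026392-137033351) encodes a precursor of the granin type that is cut into peptides such as TLQP-21. Its normalised count was 1087 to 3635 in RD samples (median 1434), 2288 to 7196 in HFD samples (median 3464) and 427 to 1353 in HFD-O304 samples (median 590). The HFD and HFD-O304 samples did not overlap. RD lay between them, with 2 HFD samples above and 6 HFD-O304 samples below all RD samples. The log2 fold change was 1.01 (0.27) for HFD against RD, −1.40 (0.28) for HFD-O304 against RD and −2.40 (0.29) for HFD-O304 against HFD. Without HFD-O304 replicates 4, 5 and 7 the last value was −2.23.

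Gast (ENSMUSG00000017165, chr11:100334407-100336996) encodes gastrin, a stomach hormone that the pancreas makes before birth and that is low in adult islets. Its samples held 10.6 to 36.3 normalised counts in RD (median 29.6), 29.6 to 96.2 in HFD (median 52.4) and 9.71 to 26.1 in HFD-O304 (median 14.7). Of the HFD samples 5 lay above every RD sample, and HFD replicates 6 and 7 did not. All HFD-O304 samples were below all HFD samples. The log2 fold change was 1.20 (0.27) for HFD against RD, −0.83 (0.30) for HFD-O304 against RD and −2.03 (0.29) for HFD-O304 against HFD. In HFD against RD it was 1.54 in set 1 and 0.52 in set 2.

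Cck (ENSMUSG00000032532, chr9:121489824-121495694) encodes cholecystokinin, the gut hormone that drives secretion of pancreatic enzymes and that islet cells can also make. RD samples held 1.07 to 9.23 normalised counts (median 5.19), from 38 read pairs in all. HFD samples held 17.4 to 292 (median 50.05), and HFD-O304 samples 0.696 to 10.8 (median 3.53). No HFD sample overlapped the other groups, while RD and HFD-O304 samples did. The spread in HFD (mean 88.2, SD 99.7, n = 7) was larger than the mean, and replicate 3 was the highest sample. The log2 fold change was 4.01 (0.59) for HFD against RD and −4.24 (0.61) for HFD-O304 against HFD, and without HFD replicate 3 these were 3.31 and −3.54. Within sets 1 and 2 the HFD value against RD was 4.31 and 2.81, and that of HFD-O304 against HFD −4.74 and −2.66. For HFD-O304 against RD it was −0.23 (0.81).

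**Figure D3:**
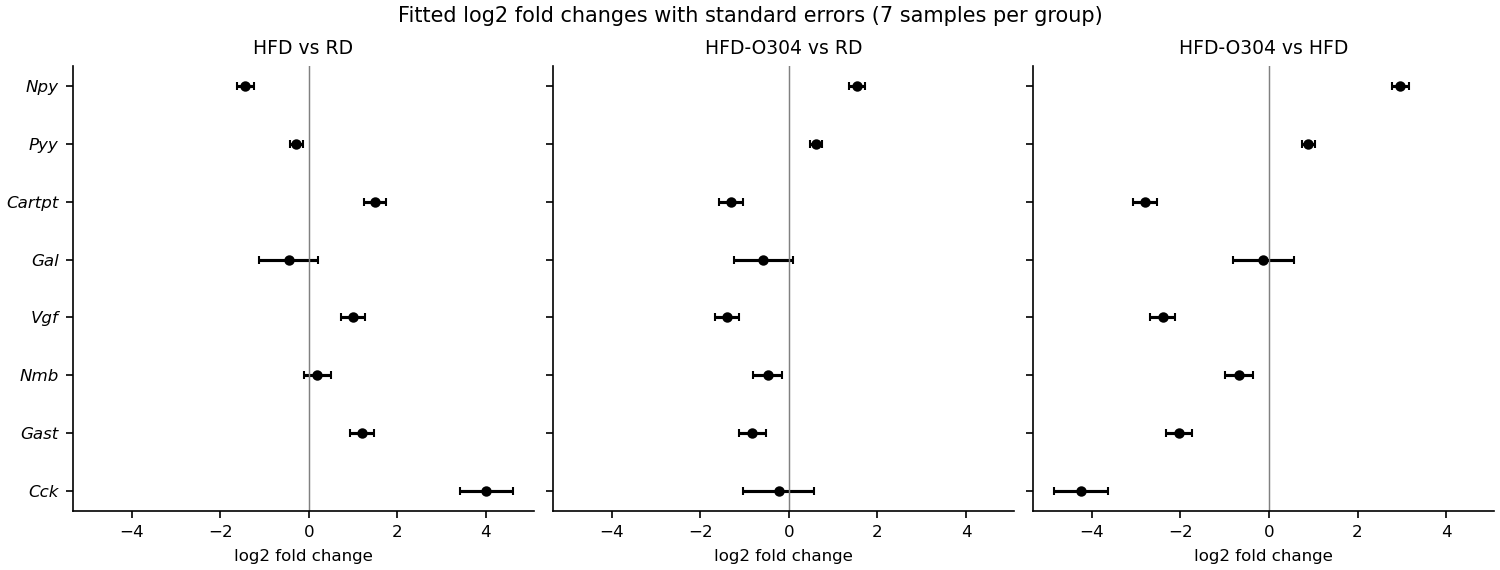
Fitted log2 fold changes of 8 peptide genes, with bars for the standard error, in the 3 comparisons of 7 samples each. Npy and Pyy lie on the side opposite to Cartpt, Vgf, Gast and Cck in HFD against RD and in HFD-O304 against HFD, and Cck has the widest range (4.01 and −4.24).

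Leaving out HFD-O304 replicate 1, the sample with conflicting labels, gave log2 fold changes in HFD-O304 against HFD of 2.89 for Npy, 0.92 for Pyy, −2.82 for Cartpt, −2.49 for Vgf, −2.08 for Gast and −4.14 for Cck. Of these 6, Cck moved most, by 0.10. Without HFD-O304 replicates 4, 5 and 7 the values against HFD were −2.75 for Cartpt, −1.81 for Gast and −4.41 for Cck, and against RD they were 1.39 for Npy, 0.42 for Pyy, −1.25 for Cartpt, −1.22 for Vgf, −0.60 for Gast and −0.40 for Cck.

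Gal (ENSMUSG00000024907, chr19:3409915-3414544), the gene for the nerve peptide galanin, and Nmb (ENSMUSG00000025723, chr7:80902227-80905076), that for neuromedin B of the bombesin family, were low in every group. Gal had 0 to 18.7 normalised counts in RD, 0 to 7.01 in HFD and 1.39 to 10.4 in HFD-O304 samples, with medians of 2.14, 4.25 and 2.95. The groups overlapped throughout. Its log2 fold changes, −0.45 (0.67), −0.58 (0.67) and −0.13 (0.69), were smaller than their standard errors. That against RD in HFD-O304 islets was 1.36 in set 1 and −2.23 in set 2. Nmb had 5.34 to 19.2 (median 9.88) in RD, 7.56 to 21.1 (median 12.01) in HFD and 3.05 to 13.1 (median 7.94) in HFD-O304 samples, with 3 of 7 HFD-O304 samples below every HFD sample. Its log2 fold change was 0.19 (0.31), −0.48 (0.32) and −0.67 (0.32). Of the 793 exon bases of Nmb, 163 (20.6%) also lie in exons of Sec11a on the same strand, and read pairs falling in both genes are not in the counts.

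Tac1 (ENSMUSG00000061762, chr6:7554879-7565834) and Adcyap1 (ENSMUSG00000024256, chr17:93199017-93206537) encode peptides of sensory and autonomic nerves, and both were near 0 in most samples. Tac1 had 12 read pairs over the RD, 16 over the HFD and 74 over the HFD-O304 samples, of which 49, 9 and 13 came from HFD-O304 replicates 4, 5 and 7. Adcyap1 had 1 read pair over the RD, 1 over the HFD and 18 over the HFD-O304 samples, of which 3, 10 and 5 came from the same replicates, and 0 in the other 4. These are the libraries with most reads of the autonomic neuron markers. Vip, the gene for another peptide of islet nerves, named after its values were seen, had 699, 131 and 100 read pairs there. It had at most 12 in the other HFD-O304 samples, 25 in RD samples and 39 in HFD samples (replicate 6). Stmn2, a marker of neurons, had 305, 144 and 138 read pairs in the 3 libraries, and Phox2a, at 0 in all RD and HFD samples, had 12, 4 and 8. Prph had 122, 40 and 27 there, Slc18a3 22, 13 and 10, and Chat 11, 8 and 0. Dbh reached 4 read pairs in RD and 5 in HFD samples, while it had 1 in each of the 3 libraries. Without these libraries the log2 fold change of Tac1 was −1.26 (0.94) for HFD-O304 against RD, where it was 2.42 (0.85) with them, and Adcyap1 did not reach 10 read pairs. The part of nerve fibres in these counts was not tested.

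**Figure D4:**
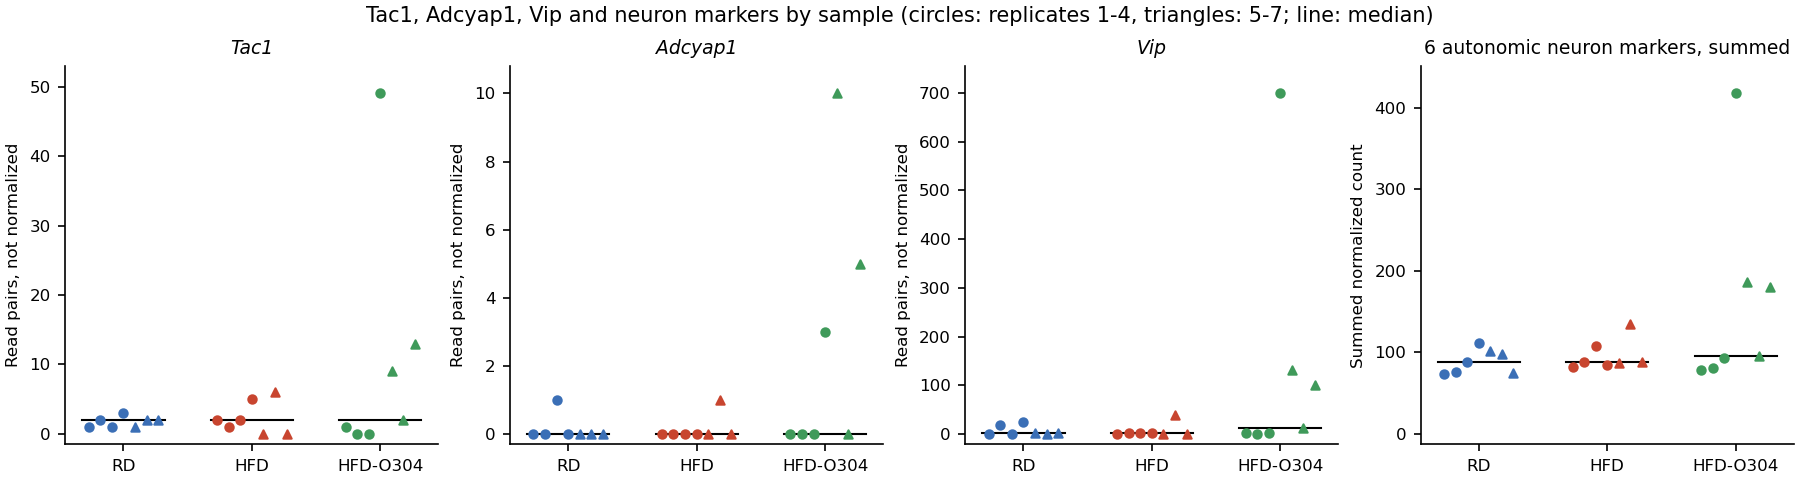
Read pairs of Tac1, Adcyap1 and Vip, and the summed normalised count of 6 autonomic neuron markers, in each of 21 samples by group, with a line at the median. HFD-O304 replicates 4, 5 and 7 hold 417, 187 and 181 marker counts and nearly all reads of Adcyap1.

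The 10 genes were not named by the library sets, and the split was therefore tested. Earlier results of these samples were known at the choice, so the p-values may not be independent of them. With group in the fit, 2.82% of all genes differed between sets 2 and 1 (edgeR, adjusted p under 0.01), and 1 of the 10 peptide genes did. Vgf was lower in set 2, by a fitted log2 difference of −0.78 (standard error 0.17, edgeR adjusted p = 0.00609) and set means of 2459 and 1226 normalised counts in RD, 4639 and 2911 in HFD and 861 and 553 in HFD-O304 islets. Cck (−1.73, standard error 0.45, adjusted p = 0.0181), Cartpt (−0.62, 0.17, 0.0255) and Gast (−0.62, 0.21, 0.0653) did not pass. The call of Vgf was lost, with an adjusted p of up to 0.0166, when RD replicate 2, 5, 6 or 7, HFD replicate 4, 6 or 7, or HFD-O304 replicate 3, 5 or 6 was left out.

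For the 4 peptide genes with a mean of at least 50 normalised counts over the 21 samples, Npy, Pyy, Cartpt and Vgf, the genes most like them across samples were found from log2 CPM (counts scaled to library size) centred within each group, over 13215 other genes and 21 samples. Npy was most like Pde1c (Pearson r = 0.81), AC137585.3 (0.79) and Kcnh8 (0.79). Pyy was most like Cldn7 (0.84), Gpr153 (0.79) and Arl2 (0.79), and Cartpt most like Gm5454 (0.80), Higd2a (0.78) and Cd44 (0.78). Vgf was most like Bop1 (0.92), Krtcap2 (0.91) and Pqlc1 (0.88). Among the peptide genes themselves, r within groups was 0.56 for Cartpt with Vgf and 0.30 for Npy with Pyy, and from −0.35 to −0.09 for the other pairs. All these values share library and depth, and are given without a test.

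The lists of receptors, other precursors, processing enzymes and markers were also chosen with earlier results of these samples known. Their calls and p-values are therefore not independent of those results. The receptors of these peptides, 21 genes of which 15 passed the filter, were tested in the same fit. In HFD against RD islets none passed (edgeR, adjusted p under 0.01), with 3 under 0.05 before adjustment and 1 passing by DESeq2, and in HFD-O304 against RD none passed, with 2 before adjustment and 0 by DESeq2. In HFD-O304 against HFD, with 6 before adjustment, 1 was lower, Vipr2, a receptor for both PACAP and the peptide of Vip, at 47.6 ± 5.22 against 90.5 ± 20.4 normalised counts (log2 fold change −0.91, standard error 0.16, adjusted p = 0.000111, n = 7 each, edgeR). Of all genes 6.79% were called lower by edgeR in that comparison. The shares of all genes under 0.05 before adjustment, or passing by DESeq2, were not computed, and nothing is read from those counts of receptors. The median log2 fold change of the receptor list was −0.14, 0.04 and 0.04 in the 3 comparisons, beside −0.0044, 0.0078 and 0.03 over all genes tested. Per kb of exon, the highest receptor in RD islets was Vipr1 (13.2 ± 1.01), which binds the peptides of Vip and Adcyap1. The galanin receptors Galr1 (8.32 ± 0.453) and Galr3 (8.17 ± 0.791) came next, although Gal itself was near 0, and the PACAP receptor gene Adcyap1r1 followed at 0.593 ± 0.126.

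Receptors for the more abundant peptides were low. Of the Y receptors for Npy and Pyy, Npy1r was at 0.260 ± 0.0486 per kb in RD islets, and Npy2r, Npy4r, Npy5r and Npy6r had from 1 to 7 read pairs over all 21 samples. Npy1r had a fold change of −0.81 on the log2 scale (standard error 0.24) in HFD-O304 against HFD and did not pass (edgeR, adjusted p = 0.0193). Cckbr, which binds gastrin and cholecystokinin alike, had 4 read pairs in all. Cckar, the receptor for cholecystokinin that acinar cells carry, ran from 3.203 to 145 normalised counts in RD samples, while the sum of 9 acinar markers ran from 3319 to 304080, and the part of acinar RNA in it was not tested. Of the others at RD, C3ar1, a receptor for the Vgf peptide TLQP-21, was at 0.207 ± 0.0994, Tacr1, the substance P receptor, at 0.0786 ± 0.0228, Gpr160, proposed as a CART receptor, at 0.0593 ± 0.0382 and Nmbr at 0.0391 ± 0.0225.

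Other precursors of peptides, 70 genes of which 40 passed the filter, were compared with the same test to place the 10 genes among them. This list too was chosen with earlier results of these samples known, so its calls are not independent of them. In HFD against RD, 6 of the precursors rose and 4 fell, and the list had a median log2 fold change of 0.03. Of all genes 2.00% were called higher and 1.54% lower there. The granin Chgb (log2 fold change 0.97, standard error 0.17, adjusted p = 0.000615) and Nucb2, the nesfatin precursor (0.97, 0.19, 0.00189), rose, as did Iapp, Scg2, Scg3 and Scg5, while the granin Chga (−0.02, 0.09, 0.935) was not called. Pnoc, the nociceptin precursor, fell (−1.03, 0.18, 0.000597), as did Gcg (−1.01, 0.12, 7.27e-06), Sst (−0.66, 0.15, 0.00646) and Edn3, endothelin 3 (−0.60, 0.10, 0.00029). Pnoc stood at 115.4 ± 24.2 normalised counts in RD and 56.5 ± 17.1 in HFD samples, and like Gcg it had no overlap between the groups. The call of Sst was lost without RD replicate 1, 5, 6 or 7 or any 1 of HFD replicates 1 to 5 (adjusted p up to 0.0203), that of Iapp without RD replicate 1, 6 or 7 or HFD replicate 4 (up to 0.0133), and those of Scg3 and Scg5 without any 1 of 12 and 16 of the 21 samples (up to 0.0307 and 0.0333).

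In HFD-O304 against RD, 1 rose, Edn3 (0.49, 0.10, 0.00326), and 1 fell, Scg2, which encodes secretogranin II (−0.60, 0.08, 1.53e-05), both without overlap of the samples, and the list median was −0.07. Of all genes 0.404% were called higher and 0.903% lower in HFD-O304 against RD. In HFD-O304 against HFD, 6 of the precursors rose and 10 fell (5.08% and 6.79% of all genes), with a list median of −0.05. Nucb2 (−1.58, 0.19, 1.24e-06), Chgb (−1.29, 0.17, 3.32e-06), Apln, the apelin gene (−1.13, 0.21, 0.000268), and Pdyn, the dynorphin precursor (−1.06, 0.21, 0.000574), were among those that fell, beside Iapp, Ins1, Ins2, Scg2, Scg3 and Scg5. Gcg (1.21, 0.12, 2.55e-08) and Edn3 (1.09, 0.10, 9.11e-09) were among those that rose, beside Sst, Ucn3, Edn2 and Vip. The call of Vip (4.29, 1.15, 0.00801) was lost without any 1 of 9 of the 21 samples (up to 0.0901). These were HFD replicates 1 to 5 and 7 and HFD-O304 replicates 4, 5 and 7. It was not called by DESeq2 or with the replicate block either. Its value rested on the 3 libraries rich in neuron markers, and without them it was −0.94 (1.33, 0.744). Without them the precursors had 11 calls in place of 16, and those of Pdyn (−0.90, 0.26, 0.0217), Ucn3 (0.47, 0.14, 0.0208), Ins1 (−0.21, 0.06, 0.031) and Ins2 (−0.21, 0.06, 0.0243) were lost as well. So were those of Edn3 in HFD-O304 against RD (0.54, 0.12, 0.0169) and, in HFD against RD, Sst (−0.65, 0.16, 0.0111) and Scg3 (0.41, 0.10, 0.0137), in a fit with fewer samples. The call of Edn3 against RD was lost without HFD-O304 replicate 1 (adjusted p = 0.0115), and that of Ins1 without any 1 of 10 of the 21 samples (up to 0.0192). All p-values of this paragraph and the previous one are edgeR's, adjusted over 27229 genes.

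**Figure D5:**
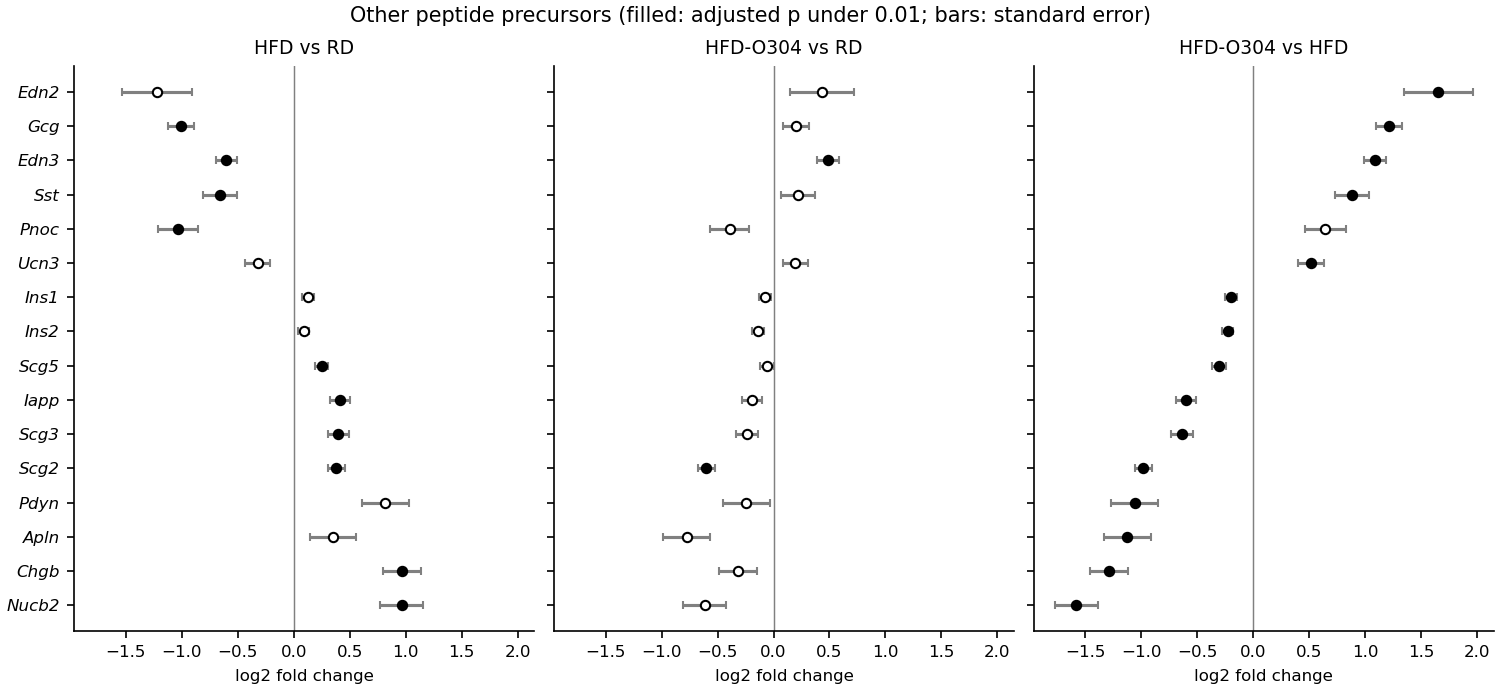
Log2 fold changes of the peptide precursor genes, other than the 10 and Vip, that passed an adjusted p of 0.01 (edgeR) in at least 1 comparison, with bars for the standard error and filled points where they passed. Gcg, Edn3 and Sst are lower and Chgb and Nucb2 higher in HFD against RD, and each lies on the other side of 0 in HFD-O304 against HFD.

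All 20 genes for enzymes that process peptide precursors passed the filter. The shares of all genes called were 2.00% higher and 1.54% lower in HFD against RD. They were 0.404% and 0.903% in HFD-O304 against RD, and 5.08% and 6.79% in HFD-O304 against HFD. Of the 20 genes 1 fell in HFD against RD, the convertase Pcsk6 (log2 fold change −0.49, standard error 0.11, edgeR adjusted p = 0.00497). In HFD-O304 against RD 1 rose, Dpp4 (0.32, 0.05, 0.000446), which trims Npy and Pyy at their N terminus, and 1 fell, Qpctl (−0.30, 0.06, 0.00671), a glutaminyl cyclase. In HFD-O304 against HFD 2 rose, Pcsk6 (0.86, 0.11, 1.96e-06) and Dpp4 (0.44, 0.05, 6.82e-07), and 3 fell, Pam (−0.71, 0.10, 5.8e-06), Qpctl (−0.54, 0.06, 7.83e-07) and Ctsl (−0.27, 0.07, 0.00311). Pam amidates the C terminus of Npy, Pyy, gastrin, cholecystokinin and substance P. The main convertases Pcsk1 (0.12, −0.15 and −0.27) and Pcsk2 (0.03, 0.03 and 0.0021) and the carboxypeptidase Cpe (0.06, −0.0011 and −0.06) had the log2 fold changes given in the order of the 3 comparisons and were not called in any of them. The list medians were 0.02, 0.02 and 0.0001. Of these calls, Pcsk6 in HFD against RD was lost without RD replicate 4, 6 or 7 or any 1 of HFD replicates 1 to 5 (adjusted p up to 0.0145), Qpctl in HFD-O304 against RD without RD replicate 2, 3 or 4, HFD replicate 2 or HFD-O304 replicate 1, 2, 4, 5 or 6 (up to 0.0338), and Ctsl without HFD replicate 1, 2 or 4 (up to 0.0116). Without the 3 neuron-rich libraries Dpp4 (0.31, 0.06, 0.0117) and Qpctl (−0.28, 0.08, 0.0973) in HFD-O304 against RD and Ctsl (−0.26, 0.08, 0.0288) were not called.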

How the data were processed

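RNA-seq libraries of 21 islet samples were sequenced as paired 50 bp reads. The authors aligned them to GRCm38 (Ensembl version 96) with STAR, as given in the methods and in the submitters' processing notes, and deposited STAR's raw counts, the number of read pairs on each gene. STAR leaves out pairs with more than 1 match in the genome and pairs that overlap more than 1 gene. STAR gives unstranded counts and counts per strand. Those of the larger strand, 28.8 to 36.3 times the other, were used here. Read pairs on genes were 13809266 to 48922569 per sample. All 55536 gene identifiers were found in GENCODE release M21.

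Genes with at least 10 read pairs in all (27229) were fitted with edgeR 4.0.16 in R 4.3.3 (TMM, quasi-likelihood, all 3 groups, no covariates) and called at a Benjamini-Hochberg adjusted p under 0.01. DESeq2 1.42.0 served as an alternative and gave the size factors for normalised counts. The fit was tested on simulated data. Nothing in the labels ties samples to separate cultures beyond their pools of mice, and p-values measure the spread between these pools. Having 7 samples in a group limits the precision, as does depth where reads are few.

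The 10 genes and the lists of precursors, receptors, processing enzymes and markers were chosen with earlier results of these data known. Some genes of the marker lists are not reported here and are in no sum or count. Genes were named by rule: all 10, the called genes of each list with a mean of at least 50 normalised counts (at most the 6 with the largest change per comparison), receptors by level, and the 3 genes most like each of the 10 that reach that mean. Others named were chosen after their values were seen. Alternatives covered the test, scaling, filter, the strand counted, the groups fitted, a replicate block, the library set, the threshold and each sample left out, and 1 without the 3 libraries rich in neuron reads was added after the data were seen. Pairing by the shared replicate numbers was checked with correlations of the samples' deviations from group means. ChIP-seq was not analysed here. Python 3.11.15 served for tables and figures, with pandas 2.3.3 and matplotlib 3.10.9.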

Additional observations from a re-analysis of the deposited data

Results flagged for a closer look

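In groups of 7 samples, a sample was listed when its gap to the nearest other, divided by the range of the group, was above Dixon's 95% critical value for that number. Of 75 groups of values tested for 25 genes, 6 were listed, and chance alone lists about 1 in 20. For Tac1, HFD-O304 replicate 4 was the highest with 43.2 normalised counts, against 12.8 in the next sample, and it is also the library with most reads of the autonomic neuron markers. For Adcyap1, the listing rests on single reads. RD replicate 3 had 0.923 and HFD replicate 6 had 1.09 normalised counts, with 0 in every other sample of their groups.

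The other 3 concern genes outside the 10. For Apln, HFD-O304 replicate 3 held 206 normalised counts, with 132 in the next sample. For Sst, HFD replicate 7 held 101156, with 68967 in the next. For Vipr2, HFD-O304 replicate 5 was lowest with 37.4, with 46.9 in the next.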

How the results depend on the processing

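Of the 944 recomputed log2 fold changes of the 10 peptide genes, 936 moved by less than 1 SD between replicates and 8 by more. Most of the 944 came from leaving out 1 sample, which can hardly move a value that far. Their number therefore does not measure how stable the values are. All 8 came from fits within sets or without the 3 libraries rich in neuron reads. A change of sign can also stay under 1 SD. Gal in HFD against RD (SD 1.45) was −0.45 in the fit reported and 0.81 within set 1. Npy, Cartpt, Vgf, Nmb, Gast and Pyy kept their sign under every alternative run in all 3 comparisons. Values that moved were within set 1 Gal (1.36, HFD-O304 against RD), within set 2 Gast (0.52) and Adcyap1 (1.92) in HFD against RD, Gal (−2.23) and Adcyap1 (5.29) in HFD-O304 against RD and Cck (−2.66) in HFD-O304 against HFD, and without the 3 libraries rich in neuron reads Tac1 (−1.26 and −1.69 against RD and HFD). The call of Vip in HFD-O304 against HFD reversed its sign without those libraries (−0.94).

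Precursors in HFD against RD, 10 in the fit reported, ranged from 6 to 13 calls with 1 sample left out, being 6 without RD replicate 1, 6 or 7 or HFD replicate 4 and 13 without HFD replicate 7. Those in HFD-O304 against RD, 2 in that fit, were 4 at an adjusted p under 0.05, 1 within set 1, 1 without the neuron-rich libraries and 1 to 2 with 1 sample left out. Receptors in HFD against RD, 0 in that fit, gave 1 call at 0.05, with edgeR's filterByExpr, with the library set as covariate, with DESeq2 and with the replicate block, and 0 to 1 with 1 sample left out, the 1 without RD replicate 2 or HFD replicate 7. Receptors in HFD-O304 against HFD, 1 in that fit, gave 4 at 0.05, 3 with the replicate block, 2 with the library set, 3 with DESeq2 and 1 to 2 with 1 sample left out, the 2 without HFD replicate 7 or HFD-O304 replicate 4. Processing genes in HFD against RD, 1 in that fit, gave 3 at 0.05, 2 without a filter, 0 with 2 groups in the fit, 2 with the replicate block, 3 with the library set, 2 within set 1, 0 within set 2, 3 with DESeq2 and 0 to 3 with 1 sample left out, being 2 without HFD replicate 6 and 3 without HFD replicate 7. Processing genes in HFD-O304 against RD, 2 in that fit, gave 1 without a filter, 1 on unstranded counts, 0 within set 1, 1 within set 2, 0 without the neuron-rich libraries and 1 to 2 with 1 sample left out. The effect of library set on the 10 genes, 1 call, was 3 at 0.05, 3 without a filter, 2 without the neuron-rich libraries and 0 to 2 with 1 sample left out, being 2 without RD replicate 1 or HFD-O304 replicate 7. The causes were not tested, beyond fewer samples in the fits within sets and without libraries. For these alternatives the share of all genes called was not computed, so nothing about the lists is read from the counts.

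Same-numbered samples deviated together (correlation over 0.1) in 4, 6 and 5 of 7 pairs, with mean correlations of 0.20, 0.29 and 0.13. Samples were best matched by their own number in 2 or 3 of 7. These values do not settle whether samples of 1 number share a structure. The fit reported has no pairs, and the replicate block is given only here. Calls of 38 single results outside the 10 genes' diet values held in 1107 of 1248 recomputed values, were lost in 140 and reversed in 1. At this depth Tac1, Adcyap1 and Gal, with 1 to 74 read pairs per group, cannot show differences of ordinary size.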
